A study of Homo sapiens with 42 samples.

Results

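The response of K562 cells to 1 h of the compound JTE-607 was compared between nuclear RNA and mRNA, gene by gene, to ask which transcripts moved differently in the nucleus and in the poly(A) pool. The comparison used 12 of the 42 libraries of the series: mRNA CTRL, mRNA JTE 1h, nuclear CTRL and nuclear JTE 1h, with 3 libraries labelled as biological replicates in each. K562 is an established line from a chronic myeloid leukaemia that carries the BCR-ABL1 fusion kinase. CTRL cells were untreated, JTE 1h cells received 5 μM JTE-607 for 1 h, and both came from cultures of the 1 line with no engineered allele. The mRNA libraries were made with oligo-dT beads from total RNA of whole cells, and the nuclear libraries from nuclear RNA depleted of ribosomal RNA, by DNA oligonucleotides and RNase H according to the labels and with a RiboMinus kit according to the study's methods. Cell fraction and library chemistry therefore changed together and cannot be told apart. The quantity tested for each gene was the log2 fold change in nuclear RNA minus the log2 fold change in mRNA, called the difference between fractions here.

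The 3′ end of an mRNA is made by a large protein complex that recognises a hexamer, most often AATAAA or ATTAAA, and cuts the new transcript a little downstream of it. The cut is made by the nuclease CPSF73, encoded by CPSF3, and the new end receives a poly(A) tail that allows export and protects the mRNA. JTE-607 is a prodrug whose active form binds CPSF73. When cutting fails, RNA polymerase can run on past the end of a gene into the sequence, and into the neighbouring genes, downstream of it.

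Library totals lay between 17855236 and 20323444 counts in mRNA and between 19803825 and 25103205 in nuclear RNA, and replicates of each group differed by more than sampling noise, so each library was counted once. All 10 K562 markers were detected in both fractions. The summed level of MALAT1, NEAT1 and KCNQ1OT1, long non-coding RNAs kept in the nucleus, was 2380 to 2920 CPM (counts scaled to the library total) in mRNA and 12500 to 19000 in nuclear RNA, and that of the mitochondrial transcripts was 100000 to 122000 and 49200 to 64800 CPM. The nuclear libraries thus still held mitochondrial RNA. Markers of B cells, T cells, monocytes and fibroblasts summed to at most 17.9 CPM for any of these cell types, and the 4 epithelial markers, of which EPCAM and KRT8 were detected above 1 CPM, to 255 to 315 CPM with overlap between all groups. Levels of single genes, here and below, are CPM that were also scaled by TMM normalization, unlike these marker sums. CPSF3, the gene of the target, was at 174, 184 and 152 CPM in mRNA CTRL, 197, 191 and 167 in mRNA JTE 1h, 126, 102 and 90.2 in nuclear CTRL and 136, 121 and 122 in nuclear JTE 1h. Its groups overlapped in both fractions, and the difference between fractions was 0.13 (log2, SE 0.17, edgeR adjusted p 0.935).

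Among 19831 genes that passed a filter on low counts, 12 (0.0605%) were called in the difference between fractions by edgeR's quasi-likelihood test. A call needed a p under 0.05 after Benjamini-Hochberg adjustment and a log2 value beyond 0.6. Of these, 11 (0.0555%) had the higher response in nuclear RNA and 1 (0.00504%) in mRNA. The 2 responses themselves were larger sets. In nuclear RNA 1119 genes (5.64%) were called, 1019 higher (5.14%) and 100 lower (0.504%), and in mRNA 157 (0.792%), 70 higher (0.353%) and 87 lower (0.439%). Of the 1019, only 20 averaged 10 CPM or more, as did 9015 of the 19831 genes tested, so that set was mostly of low genes. At an unadjusted p under 0.05 the difference between fractions was positive for 932 genes and negative for 243. The count of 12 was sensitive to single libraries: it was 1 without mRNA CTRL replicate 1, mRNA CTRL replicate 3, mRNA JTE 1h replicate 1, nuclear CTRL replicate 1 or nuclear JTE 1h replicate 1 or 2, and 2 without nuclear CTRL replicate 2 or 3 or nuclear JTE 1h replicate 3, 5 without mRNA JTE 1h replicate 2 and 7 without mRNA CTRL replicate 2. SNORA73B was called in each of the 12 fits with 1 library left out, NFE2L3 in 5, MIRLET7IHG in 4, DRG1P1 and FICD in 2 each, and the others in 1 or 0. The replicate numbers paired the nuclear libraries, and with the number as a block in those libraries 2 genes were called, SNORA73B and NFE2L3. With a block by deposited number in each fraction the count was 19, but in mRNA those numbers do not pair libraries. The mRNA libraries did correlate in other pairs: CTRL 1 with JTE 1h 2 (0.803), CTRL 2 with JTE 1h 1 (0.839) and CTRL 3 with JTE 1h 3 (0.834). The main fit used no pairing, and a fit with these mRNA pairs was not run.

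**Figure D1:**
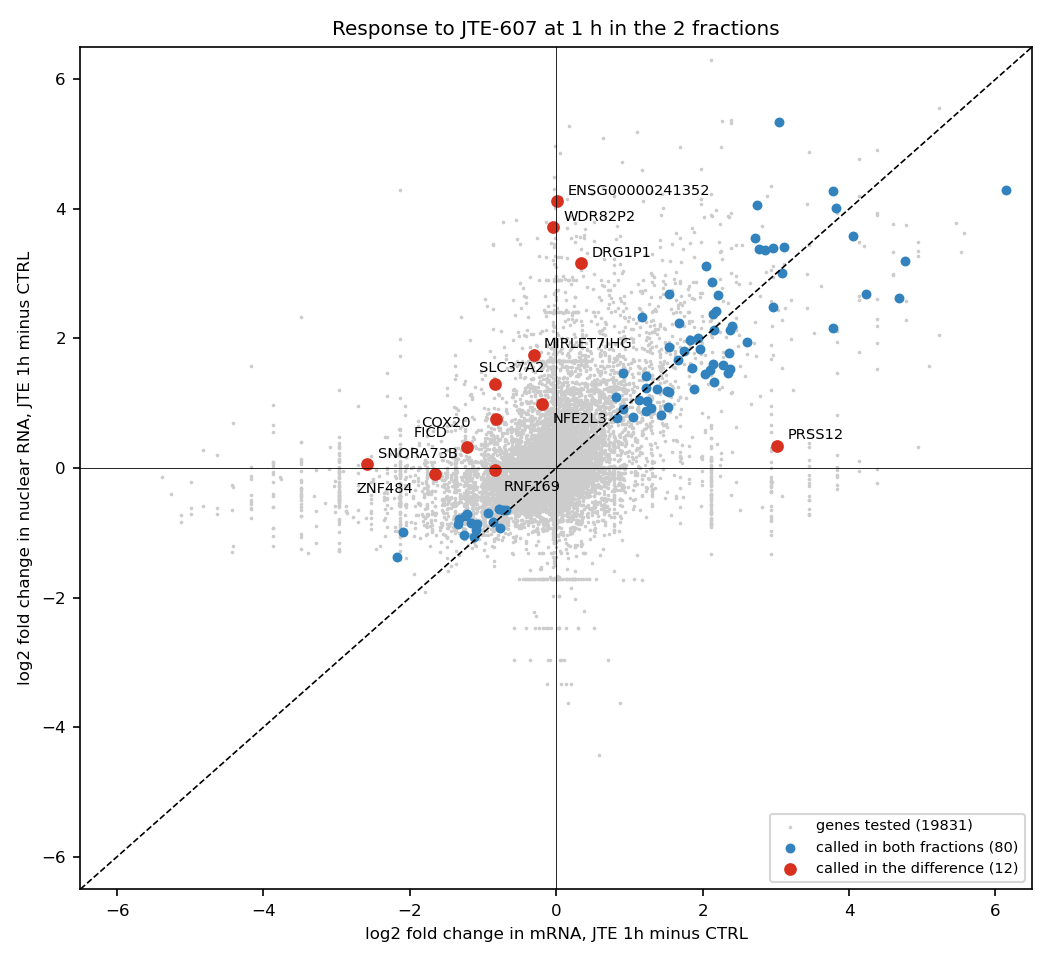
Log2 fold change of each tested gene in mRNA (horizontal axis) and in nuclear RNA (vertical axis), JTE 1h minus CTRL. Grey points are the 19831 genes tested, blue points the 80 called in both fractions and red points the 12 called in the difference between fractions, and the dashed line marks equal values. Of the red points, 11 lie above the line and PRSS12 below it.

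As the plot of the responses shows, the 12 genes left the line of equal response along both axes. In 7 of them the nuclear response itself was called higher, in 4 the mRNA response was called lower, and in PRSS12 the mRNA response was called higher.

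The strongest call was SNORA73B, a box H/ACA small nucleolar RNA (snoRNA) on chromosome 1 that lies inside the host gene SNHG3. A box H/ACA snoRNA is cut from an intron and ends without a poly(A) tail. Its sequence is shown with that of SNORD99, a box C/D snoRNA inside SNHG12 that also fell in mRNA. Capitals mark an ACA within the last 8 bases of SNORA73B, and in SNORD99 the last CTGA, the D box letters, after its midpoint. The letters were searched on the snoRNA's own strand of hg38. ACA stood in the last 8 bases of 51 of 55 tested SNORA genes (92.7%), and CTGA after the midpoint together with the C box letters TGATGA before it in 27 of 46 tested SNORD genes (58.7%). SNORD99 lacked TGATGA before its midpoint.
SNORA73B, chr1:28508559-28508762, plus strand: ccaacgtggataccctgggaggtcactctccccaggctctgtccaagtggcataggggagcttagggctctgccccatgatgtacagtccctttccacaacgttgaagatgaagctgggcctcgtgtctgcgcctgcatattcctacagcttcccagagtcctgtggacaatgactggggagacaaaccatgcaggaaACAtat
SNORD99, chr1:28578749-28578822, minus strand: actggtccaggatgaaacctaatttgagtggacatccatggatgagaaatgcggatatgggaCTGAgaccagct

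In mRNA, SNORA73B was at 4.72, 3.12 and 4.29 CPM in CTRL and at 0.473, 0.761 and 0.775 CPM in JTE 1h. In nuclear RNA it was at 213.0, 245 and 216 CPM in CTRL and at 198, 240.4 and 264 CPM in JTE 1h. All JTE 1h mRNA libraries lay below all CTRL libraries, and the nuclear groups overlapped. The mRNA fold change was -2.58 (log2, SE 0.24, edgeR adjusted p 0.000113), the nuclear one 0.06 (SE 0.13, edgeR adjusted p 0.85) and the difference 2.64 (SE 0.27, edgeR adjusted p 0.00113). The host SNHG3, named after its values were seen, changed by less than the test could call, with -0.25 in mRNA and -0.34 in nuclear RNA (SE 0.17 for each) and a difference of -0.09 (edgeR adjusted p 0.97). SNHG12, the host of SNORD99, also named after its values were seen, averaged 38.7 ± 15.6 CPM in mRNA CTRL and 17.8 ± 6.25 in mRNA JTE 1h (SD, 3 libraries each), with values of -1.12 in mRNA (SE 0.30, edgeR adjusted p 0.161) and -0.40 in nuclear RNA and a difference of 0.72 (SE 0.42, edgeR adjusted p 0.903), none of them called. SNORD99 fell from 2.88, 1.06 and 2.42 CPM to 0.295, 0.0586 and 0.477 CPM in mRNA (log2 fold change -2.91, SE 0.47, edgeR adjusted p 0.00705), while its nuclear value was -0.04 and the difference of 2.87 was not called (SE 0.55, edgeR adjusted p 0.111). The mRNA values of SNORD99 rest on few reads, 5, 1 and 8 counts in JTE 1h.

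Of 552 listed snoRNA and small Cajal body RNA genes 111 passed the filter on low counts. SNORA73B was the only one called in the difference (0.901% of the tested members against 0.0555% of all genes), and 16 had an unadjusted p under 0.05, each of them with the higher value in nuclear RNA. In mRNA 7 were called lower and none higher, against 0.439% of all genes. Besides SNORA73B and SNORD99 they included, named after their values were seen, SNORD19C, SNORD100, SNORD101 and SNORD12B, with mRNA values of -3.76, -2.34, -2.21 and -1.86 on the log2 scale and nuclear values of -0.17, -0.48, -0.47 and -0.56. None of the 111 was called in nuclear RNA. The list's median difference was 0.42, against 0.05 over all genes tested, and 0.19 without mRNA CTRL replicate 1. Low counts weigh on these fitted values: on the log2(CPM + 0.5) scale the medians of the JTE 1h libraries, against the CTRL mean of their fraction, were -0.13, -0.13 and -0.24 in mRNA and -0.25, -0.12 and -0.06 in nuclear RNA, so that scale showed no higher nuclear level. The 30 tested snoRNA host genes had a median difference of -0.01. GAS5, a host of many box C/D snoRNAs, was the only host called, lower in mRNA (-0.67, edgeR adjusted p 0.00705), with a nuclear value of -0.32 (edgeR adjusted p 0.112).

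FICD, ZNF484 and RNF169 were protein-coding genes in which mRNA fell and nuclear RNA was not called. FICD, at chromosome 12, 108515185 to 108525837, encodes an endoplasmic reticulum enzyme that attaches AMP to the chaperone BiP. It was at 3.98, 4.01 and 4.22 CPM in mRNA CTRL and 1.42, 2.05 and 1.79 in mRNA JTE 1h, and at 9.48, 9.17 and 10.98 CPM in nuclear CTRL and 11.96, 11.9 and 13.1 in nuclear JTE 1h. The treated libraries were all lower in mRNA and all higher in nuclear RNA. FICD changed by -1.21 in mRNA (SE 0.18, edgeR adjusted p 0.00502) and 0.32 in nuclear RNA (edgeR adjusted p 0.269), a difference of 1.53 (SE 0.24, edgeR adjusted p 0.0315).

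ZNF484, a zinc finger gene on chromosome 9 (92845031 to 92878038), was at 6.37, 7.66 and 8.51 CPM in mRNA CTRL and at 1.95, 2.69 and 2.50 in mRNA JTE 1h. Its nuclear level was 7.20, 6.30 and 6.35 CPM in CTRL and 6.56, 6.04 and 5.98 in JTE 1h. The mRNA groups were separate and the nuclear groups overlapped. ZNF484 changed by -1.65 in mRNA (SE 0.18, edgeR adjusted p 0.000409) against -0.10 in nuclear RNA, a difference of 1.56 (SE 0.25, edgeR adjusted p 0.0373).

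RNF169, which encodes a ubiquitin-binding protein of the response to DNA double-strand breaks, had the deepest counts of these genes. It was at 53.6, 55.2 and 53.4 CPM in mRNA CTRL and 32.4, 31.4 and 27.2 in mRNA JTE 1h, against 60.2, 59.99 and 62.2 CPM in nuclear CTRL and 60.4, 59.8 and 59.0 in nuclear JTE 1h. The nuclear groups overlapped and the mRNA groups did not. RNF169 changed by -0.83 in mRNA (SE 0.10, edgeR adjusted p 0.000446) and -0.03 in nuclear RNA, a difference of 0.81 (SE 0.13, edgeR adjusted p 0.0406). COX20, which encodes an assembly factor of cytochrome c oxidase, moved apart in both fractions. It was at 3.86, 2.59 and 3.29 CPM in mRNA CTRL and 2.01, 1.70 and 1.79 in mRNA JTE 1h, and at 5.82, 7.05 and 6.95 CPM in nuclear CTRL and 11.96, 10.7 and 10.9 in nuclear JTE 1h, with no overlap in either fraction. The nuclear rise of COX20 was called (0.76, edgeR adjusted p 0.00807), its mRNA value was not (-0.82, edgeR adjusted p 0.0748), and the difference was 1.58 (SE 0.26, edgeR adjusted p 0.0406).

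**Figure D2:**
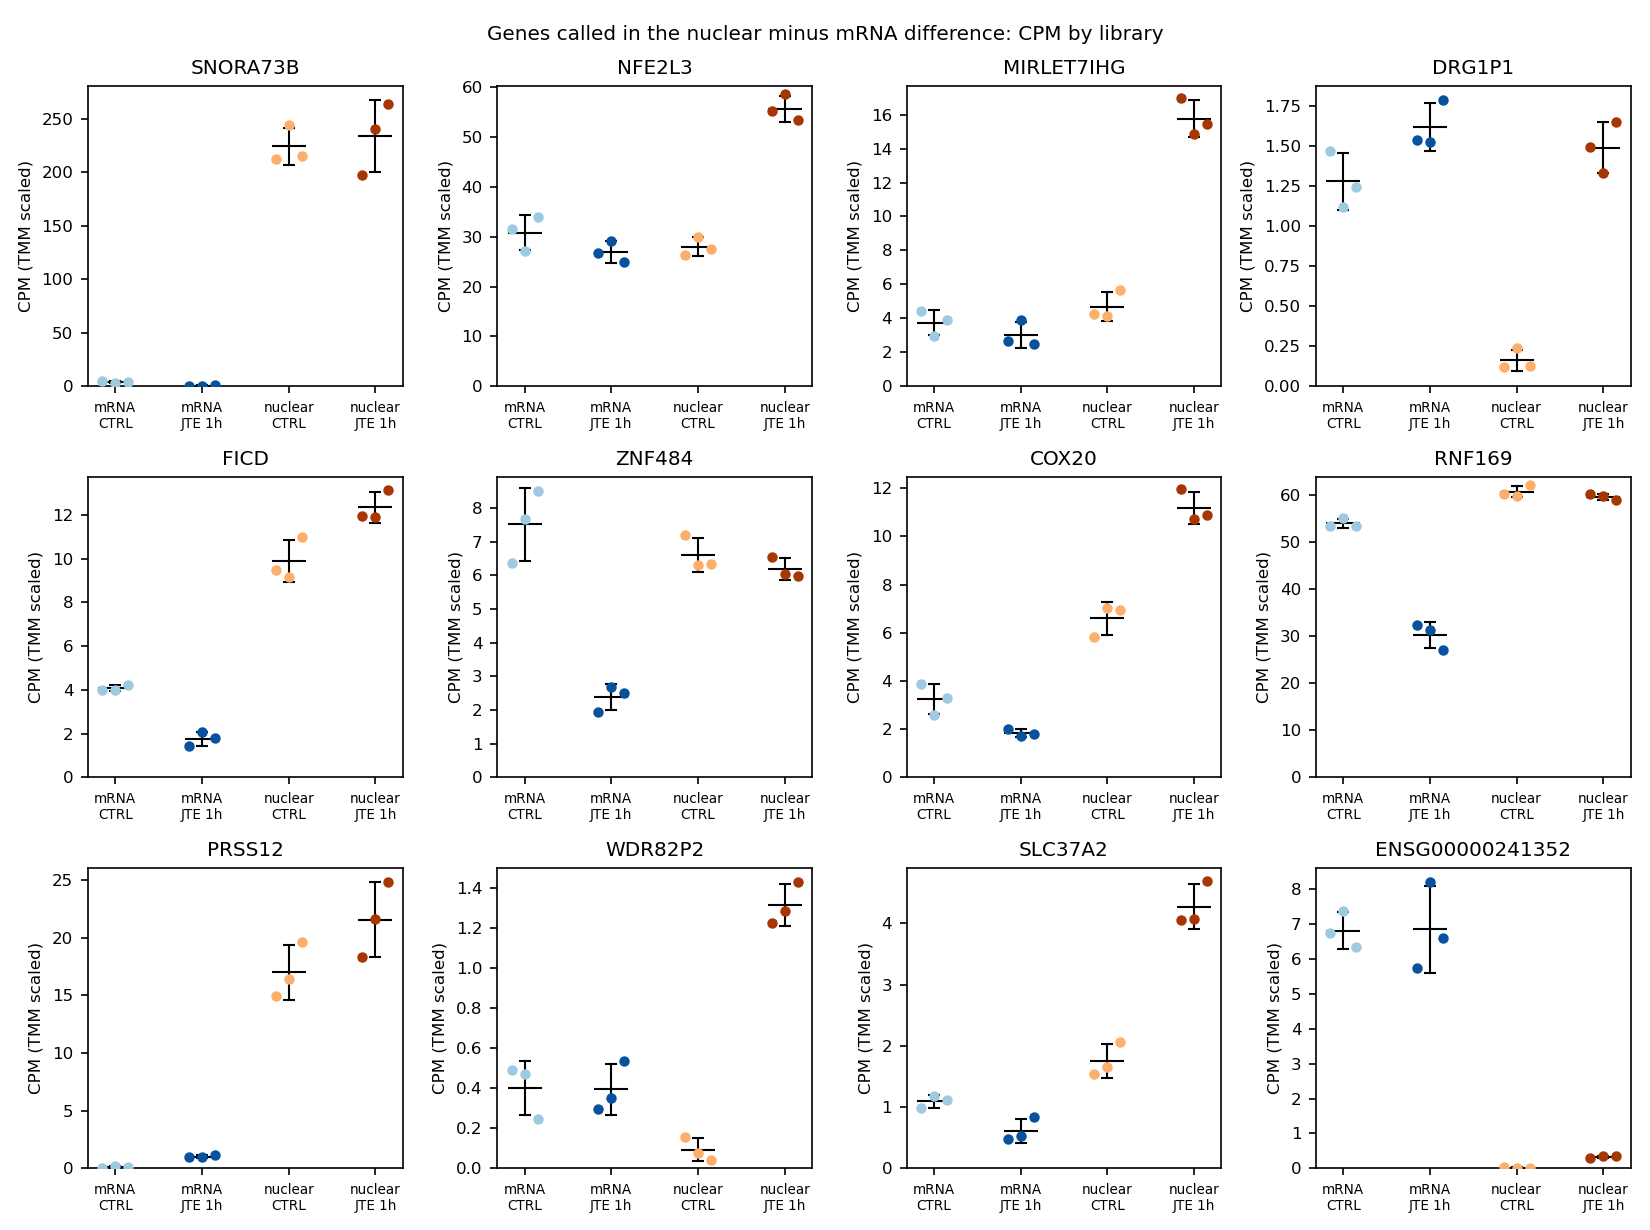
CPM of the 12 genes called in the difference between fractions, with 1 point per library and a black bar and whisker for the mean and SD of the 3 libraries of each group; each panel has its own vertical axis from 0. SNORA73B, FICD, ZNF484 and RNF169 are lower in mRNA JTE 1h than in mRNA CTRL, and NFE2L3, MIRLET7IHG, DRG1P1, COX20, WDR82P2, SLC37A2 and ENSG00000241352 are higher in nuclear JTE 1h than in nuclear CTRL.

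In the other genes a rise in nuclear RNA was not matched in mRNA. NFE2L3, at chromosome 7, 26152240 to 26187125, encodes a transcription factor of the cap'n'collar family. It was at 31.5, 27.1 and 33.9 CPM in mRNA CTRL and 26.6, 29.2 and 24.9 in mRNA JTE 1h, which overlapped, and at 26.3, 30.03 and 27.6 CPM in nuclear CTRL and 55.1, 58.5 and 53.3 in nuclear JTE 1h. Each treated nuclear library was well above each untreated one. NFE2L3 changed by 0.99 in nuclear RNA (SE 0.11, edgeR adjusted p 6.39e-05) and -0.20 in mRNA (edgeR adjusted p 0.764), a difference of 1.19 (SE 0.16, edgeR adjusted p 0.0142). An expressed gene of the opposite strand ends 2802 bases from its 3′ end, facing it, and counting did not use strand, so reads from that gene's strand could not be told apart from its own.

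MIRLET7IHG, at chromosome 12, 62602752 to 62622213, is the host transcript of the microRNA let-7i and begins 2273 bases past the 3′ end of MON2 on the same strand. Mature let-7i-5p (RefSeq, GRCh38.p14, seed of bases 2 to 8 in capitals) comes from chr12:62603691-62603712, which lies inside it; it is printed to show what the locus encodes, and mature microRNA was not measured.
hsa-let-7i-5p: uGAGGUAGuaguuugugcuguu
MIRLET7IHG was at 4.41, 2.95 and 3.91 CPM in mRNA CTRL and 2.66, 3.92 and 2.50 in mRNA JTE 1h, and at 4.25, 4.13 and 5.66 CPM in nuclear CTRL and 16.9, 14.9 and 15.5 in nuclear JTE 1h. The mRNA groups overlapped and the nuclear groups did not. MIRLET7IHG changed by 1.75 in nuclear RNA (SE 0.19, edgeR adjusted p 5.95e-05) and -0.31 in mRNA (edgeR adjusted p 0.883), a difference of 2.06 (SE 0.29, edgeR adjusted p 0.022). SLC37A2, a sugar-phosphate transporter gene of the endoplasmic reticulum, begins 21578 bases past CCDC15 and was at 1.53, 1.65 and 2.06 CPM in nuclear CTRL and 4.06, 4.07 and 4.69 in nuclear JTE 1h. In mRNA it was at 0.98, 1.18 and 1.12 CPM in CTRL and 0.473, 0.527 and 0.834 in JTE 1h. SLC37A2 libraries did not overlap in either fraction, the nuclear rise of 1.29 was called (edgeR adjusted p 0.00118), the mRNA value of -0.83 was not (edgeR adjusted p 0.315), and the difference was 2.12 (SE 0.36, edgeR adjusted p 0.048).

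The remaining nuclear rises were in processed pseudogenes, which are copies of spliced mRNAs and share sequence with their parent genes, so that counts of uniquely mapped reads are uncertain for them. DRG1P1, at chromosome 2, 20239892 to 20241046, begins 7645 bases past the 3′ end of PUM2 and overlaps no gene. It was at 0.118, 0.236 and 0.129 CPM in nuclear CTRL and 1.49, 1.33 and 1.65 in nuclear JTE 1h, and at 1.47, 1.12 and 1.24 CPM in mRNA CTRL and 1.54, 1.52 and 1.79 in mRNA JTE 1h. The treated libraries were above the untreated ones in both fractions, by far more in nuclear RNA. DRG1P1 changed by 3.16 in nuclear RNA (SE 0.32, edgeR adjusted p 3.1e-05) and 0.34 in mRNA, a difference of 2.82 (SE 0.42, edgeR adjusted p 0.0297).

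WDR82P2, at chromosome 1, 91534666 to 91535593, had 4, 2 and 1 counts in nuclear CTRL and 33, 30 and 40 in nuclear JTE 1h, a ratio of 13.96 per unit depth (95% exact interval from the counts, 6.54 to 35.6). In mRNA it had 8, 8 and 4 counts in CTRL and 5, 6 and 9 in JTE 1h. The nuclear groups were separate and the mRNA groups overlapped, and the fitted difference was 3.76 (SE 0.63, edgeR adjusted p 0.0449). ENSG00000241352, at chromosome 12, 12850982 to 12851740, had 1, 0 and 0 counts in nuclear CTRL and 8, 8 and 10 in nuclear JTE 1h, a ratio of 24.7 with a 95% exact interval of 4.05 to 1012. Its mRNA level was much deeper and overlapped between groups, at 6.74, 7.37 and 6.34 CPM in CTRL and 5.73, 8.199 and 6.61 in JTE 1h. The fitted difference of ENSG00000241352 was 4.12 (SE 0.71, edgeR adjusted p 0.048) and is no bound, since counts of 0 enter it.

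PRSS12, at chromosome 4, 118280038 to 118353003, which encodes the secreted serine protease neurotrypsin, was the only gene called with the higher response in mRNA. It had 1, 3 and 2 counts in mRNA CTRL and 16, 17 and 19 in mRNA JTE 1h, a ratio of 8.43 with a 95% exact interval of 3.62 to 24.02. Its nuclear level was 14.96, 16.4 and 19.6 CPM in CTRL and 18.3, 21.6 and 24.8 in JTE 1h, and those groups overlapped. The difference between fractions was -2.67 (SE 0.44, edgeR adjusted p 0.0406). An expressed gene of the opposite strand ends 215 bases from the 3′ end of PRSS12, facing it. Counting did not use strand, so reads from that gene's strand could not be told apart from those of PRSS12. PRSS12 was called in none of the fits that left out 1 library, and with cells treated for 1 h with imatinib (IM 1h) as the reference in place of CTRL its difference was -0.79 (edgeR adjusted p 0.719).

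The same treated libraries were also set against the IM 1h libraries of each fraction, which share no library with CTRL. That fit called 14 of 19855 genes (0.0705%), all with the higher value in nuclear RNA, and 6 of them were among the 12: SNORA73B, NFE2L3, MIRLET7IHG, DRG1P1, FICD and WDR82P2, with differences of 2.60, 0.98, 2.16, 3.01, 1.66 and 4.21. SNORD99 was called there too (2.84, edgeR adjusted p 0.0349). The other genes of the 12 kept their sign, at 1.28 for ZNF484, 1.48 for COX20, 0.52 for RNF169, 2.02 for SLC37A2 and 2.67 for ENSG00000241352, without a call. The JTE 1h libraries are common to both fits, so the second is not independent of the first.

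Other genes named by rule had large differences that were not called. IL12RB2, a receptor chain for interleukin 12, was at 2.75, 3.03 and 2.23 CPM in nuclear CTRL and 10.9, 8.96 and 13.1 in nuclear JTE 1h, while its mRNA groups overlapped at 1.30 to 2.64 CPM. The nuclear rise of IL12RB2 was 2.03 (edgeR adjusted p 3.84e-05) and its difference was 1.68 (SE 0.33, edgeR adjusted p 0.121). MIR17HG, the host transcript of the miR-17 to miR-92a cluster, was at 76.6, 54.2 and 60.2 CPM in mRNA CTRL and 16.5, 16.8 and 6.38 in mRNA JTE 1h. In nuclear RNA MIR17HG was at 114, 110.5 and 130.0 CPM in CTRL and 68.2, 85.4 and 77.9 in JTE 1h. Treated libraries of MIR17HG were lower in both fractions, the mRNA fall was called (-2.26, edgeR adjusted p 0.00374), and neither the nuclear value (-0.61, edgeR adjusted p 0.247) nor the difference (1.65, SE 0.38, edgeR adjusted p 0.312) was. DYRK1A, a kinase that phosphorylates splicing factors, and KCNQ1OT1, an antisense RNA of an imprinted domain, were also in lists examined. DYRK1A had an mRNA value of -0.59 (edgeR adjusted p 0.0112), under the fold threshold, beside 0.00 in nuclear RNA, and KCNQ1OT1 fell by 0.89 in mRNA (edgeR adjusted p 0.00579) beside a nuclear value of -0.25.

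On the negative side the named genes were H2AC12, RPL36AP8, DDX12P and CRACR2B, and none was called. H2AC12, a replication-dependent histone gene whose mRNA normally ends without a poly(A) tail, had 4, 9 and 3 counts in mRNA CTRL and 14, 13 and 13 in mRNA JTE 1h, against 210 to 264 CPM in nuclear CTRL and 180 to 257 in nuclear JTE 1h. Its difference was -1.43 (SE 0.41, edgeR adjusted p 0.473). RPL36AP8, DDX12P and CRACR2B had differences of -0.85, -0.75 and -0.72 (edgeR adjusted p 0.572, 0.572 and 0.482).

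Most genes called in 1 fraction leaned the same way in the other. Both fractions called 80 genes, 63 higher in both and 17 lower in both, and none in opposite directions. Of the 1019 genes called higher in nuclear RNA, 839 (82.3%) had a positive value in mRNA, with a median of 0.75 there and 1.83 in nuclear RNA, and 307 had an unadjusted p under 0.05 for the difference. All 70 genes called higher in mRNA had a positive value in nuclear RNA, and 63 were called. Of the 87 called lower in mRNA, 79 had a negative nuclear value, with a median of -0.42 there and -1.12 in mRNA, and 55 had an unadjusted p under 0.05 for the difference. Of the 100 called lower in nuclear RNA, 92 had a negative mRNA value. A median on the called side is larger by the choice of genes. So is a count of small p for the difference, since the called side is part of the difference. Over all 19831 genes tested, 1175 had an unadjusted p under 0.05 for the difference. These values are a description.

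Of the 5 genes named for equal calls in both fractions, TSPOAP1, which encodes a protein that binds the translocator protein TSPO, had the largest value in its weaker fraction. It begins 2124 bases past the 3′ end of MIR142HG, and went from 2.82, 1.71 and 2.80 CPM to 26.5, 35.1 and 41.7 in mRNA and from 5.31, 6.02 and 11.1 to 137, 103 and 122 in nuclear RNA. The groups of TSPOAP1 were separate in both fractions, the fold changes were 3.82 and 4.02 on the log2 scale (edgeR adjusted p 0.000147 and 8.87e-06), and the difference was 0.20 (SE 0.40, edgeR adjusted p 0.96). DENND2B rose by 2.85 in mRNA and 3.36 in nuclear RNA (edgeR adjusted p 0.000409 and 7.63e-07), with a difference of 0.51 (SE 0.41). ENSG00000261490, 1320 bases past WDR1, and ENSG00000260966, 6277 bases past DCUN1D5, had differences of 0.29 (SE 0.78) and -0.03 (SE 0.42). MGC16275 had 0, 1 and 1 counts in mRNA CTRL and 16, 23 and 25 in mRNA JTE 1h, a ratio of 31.1 with a 95% exact interval of 8.27 to 263, and rose by 3.20 in nuclear RNA (edgeR adjusted p 1.68e-06). The difference of MGC16275, -1.57 (SE 0.71, edgeR adjusted p 0.837), was the largest in size of the 5 and was not called.

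Genes that begin close past the end of an expressed gene stood out in nuclear RNA. Tandem genes were low genes, averaging under 10 CPM and overlapping no gene, that begin at most 10000 bases past the 3′ end of an expressed gene (at least 10 CPM) of their own strand. Of 943 such genes 489 passed the filter on low counts, some only through the group in which they were high, so their counts and medians describe the genes that passed. Nuclear RNA called 185 of them higher (37.8% against 5.14% of all genes) and mRNA 20 (4.09% against 0.353%). Their median was 0.89 in nuclear RNA and 0.37 in mRNA, and the median difference was 0.26 against 0.05 over all genes, ranging from 0.12 without mRNA CTRL replicate 3 to 0.44 without mRNA JTE 1h replicate 3. Over all tested genes the median difference fell with level, from 0.261 under 1 CPM and 0.116 at 1 to 10 CPM to 0.005 at 10 to 100 and -0.009 at 100 or more. The median difference of tandem genes thus does not set them apart from other low genes. The nuclear medians of all genes under 1 CPM and at 1 to 10 CPM were 0.003 and 0.012. Nuclear RNA called 10.8% and 7.86% of the genes at these levels higher, and mRNA 0.176% and 0.947%. DRG1P1 was the only tandem gene called in the difference, and 58 tandem genes had an unadjusted p under 0.05 with the higher value in nuclear RNA against 7 with the lower.

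By library, the median of the 489 tandem genes on the log2(CPM + 0.5) scale, against the CTRL mean of the same fraction, was 0.57, 0.50 and 0.55 in nuclear JTE 1h and -0.04, -0.01 and 0.05 in nuclear CTRL. In mRNA it was 0.11, 0.14 and 0.32 in JTE 1h and 0.00, -0.09 and 0.06 in CTRL. All treated libraries were above all untreated ones in both fractions, and the 3 nuclear JTE 1h libraries were above the 3 of mRNA JTE 1h. Convergent genes, low genes that meet an expressed gene of the opposite strand end to end at up to 10000 bases, had 0.49, 0.46 and 0.51 in nuclear JTE 1h and 0.06, 0.05 and 0.18 in mRNA JTE 1h. Nuclear RNA called 165 of the 466 tested convergent genes higher (35.4% against 5.14% of all genes) and mRNA 4 (0.858% against 0.353%). These 466 were the ones of 925 convergent genes that passed the filter on low counts. As with tandem genes, some may have passed only through the group in which they were high. WDR82P2 and SLC37A2 were the convergent genes called in the difference, and since strand was not used, reads of the facing gene could not be told apart from their own. The 1137 tested isolated genes were low genes with no expressed gene of either strand inside 50000 bases. Their medians were 0.03 in nuclear RNA and -0.01 in mRNA, and nuclear RNA called 2.46% of them higher. ENSG00000241352 was the isolated gene called in the difference.

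**Figure D3:**
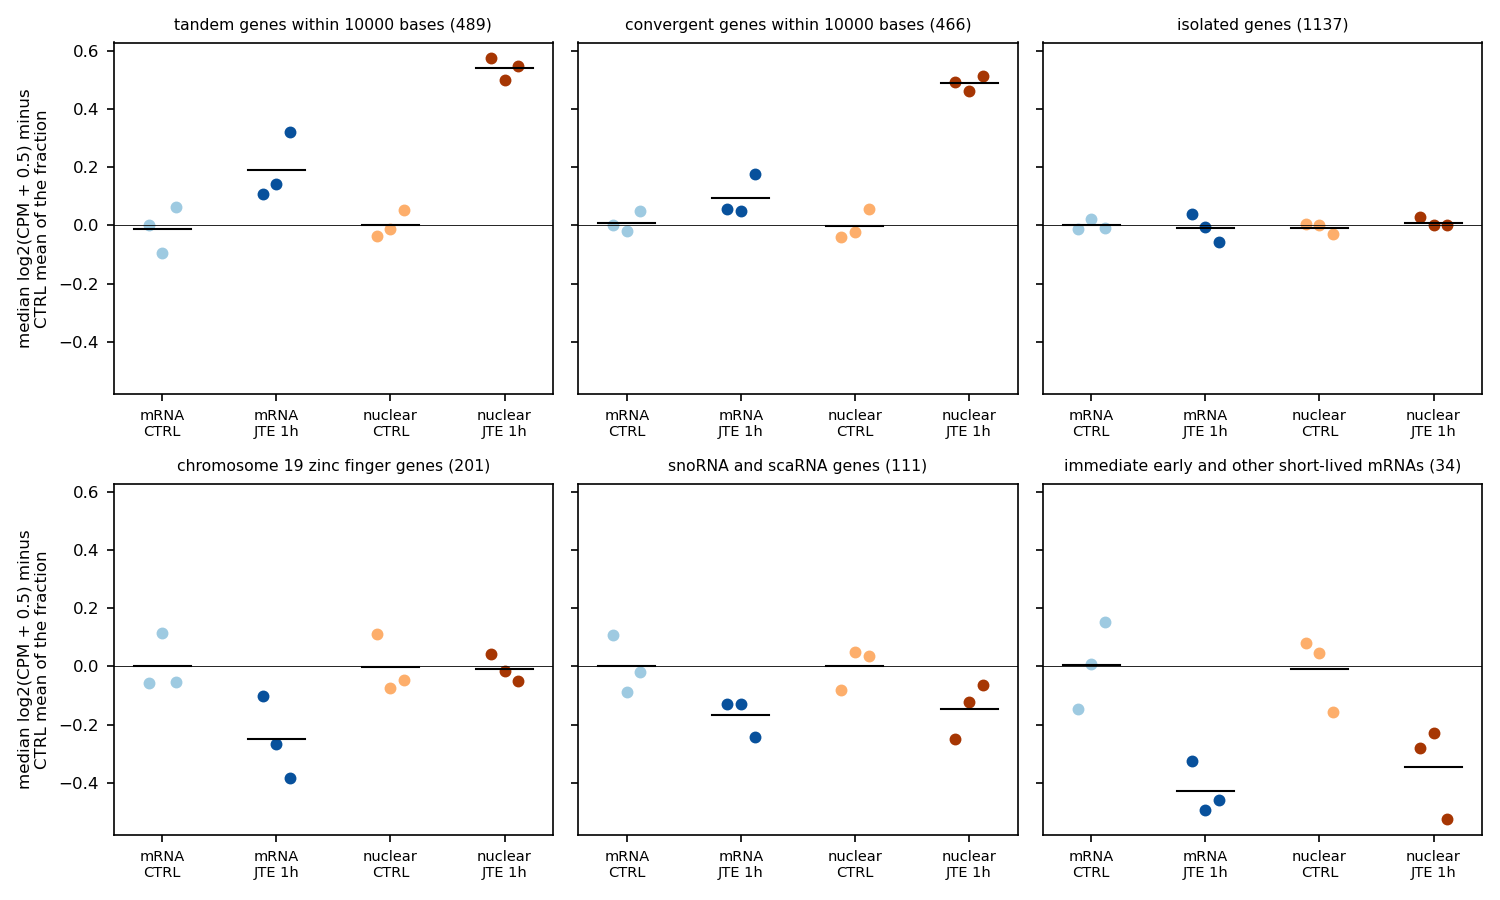
Median over the tested genes of 6 lists of log2(CPM + 0.5) in each library minus the CTRL mean of the same fraction, with 1 point per library and a bar at the mean of the 3. Tandem and convergent genes sit near 0.5 in nuclear JTE 1h and lower in mRNA JTE 1h, isolated genes sit near 0 in every group, zinc finger genes are low in mRNA JTE 1h alone, and immediate early genes are low in JTE 1h of both fractions.

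With distance from the upstream 3′ end, the nuclear median of such downstream genes was 0.82 under 2 kb, 1.00 at 2 to 5 kb, 0.82 at 5 to 10 kb, 0.42 at 10 to 20 kb and 0.02 at 20 to 50 kb. In mRNA the medians of the same bins were 0.39, 0.47, 0.31, 0.14 and 0.01. Both responses were thus largest within 10 kb and near 0 past 20 kb. The median difference between fractions did not follow that order, at 0.22, 0.28, 0.26, 0.37 and 0.15, and stood at 0.06 at 50 to 100 kb and 0.17 for the 1908 genes over 100 kb away. All these bins hold genes averaging under 10 CPM, a level at which the median difference was positive whatever the position.

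Of the 12 genes, 5 had an expressed neighbour upstream on the same strand within the limit set for naming. MON2, PUM2 and CCDC15 had nuclear values of 0.07, 0.19 and 0.28 and mRNA values of -0.17, -0.13 and -0.23, and differences of 0.24, 0.32 and 0.51 (edgeR adjusted p 0.877, 0.633 and 0.868). These differences were positive, like those of the called genes downstream, but so were 11094 of the 19831 genes tested. None of MON2, PUM2 and CCDC15 was called in either fraction or in the difference. PHACTR4 and POLD3, upstream of SNORA73B and RNF169, had differences of 0.04 and 0.14, not called. The last 30 bases up to the annotated 3′ ends of MON2, CCDC15 and PUM2 are shown, because the transcripts that begin past these points rose in nuclear RNA, with AATAAA or ATTAAA in capitals. AATAAA was found on the sense strand of the last 30 bases of 4279 of 8495 protein-coding genes averaging at least 10 CPM (50.4%), ATTAAA in 1257 (14.8%) and either in 5366 (63.2%). The windows of PUM2, PHACTR4 and POLD3 held neither, which says only that these letters are not within 30 bases of these annotated ends.
MON2, chr12:62600450-62600479, plus strand: tacaATTAAAtactggtgtatcactaacaa
CCDC15, chr11:125041460-125041489, plus strand: tgaAATAAAaattgccatagttggtatgaa
PUM2, chr2:20248691-20248720, minus strand: tctctagataaaatacccctctgtacctca

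Among protein-coding genes, the difference between fractions was larger in genes with a longer genomic span. Its median was -0.07 for 2625 genes under 10 kb, -0.03 at 10 to 30 kb, 0.07 at 30 to 100 kb, 0.15 at 100 to 300 kb and 0.22 for 385 genes over 300 kb, of which 310 had a positive value. The nuclear medians in the same order were -0.08, -0.02, 0.07, 0.13 and 0.17, and the mRNA medians 0.02, 0.03, 0.03, 0.01 and -0.03. The gradient was thus one of nuclear RNA, while the mRNA medians stayed near 0. None of the genes over 100 kb was called in the difference. Over all 2519 tested genes of more than 100 kb the per-library nuclear medians were 0.20, 0.11 and 0.08 in JTE 1h and 0.09, -0.04 and -0.06 in CTRL, so the groups overlapped, while within the 3 replicate numbers, which pair the nuclear libraries, JTE 1h was higher by 0.11, 0.15 and 0.14.

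**Figure D4:**
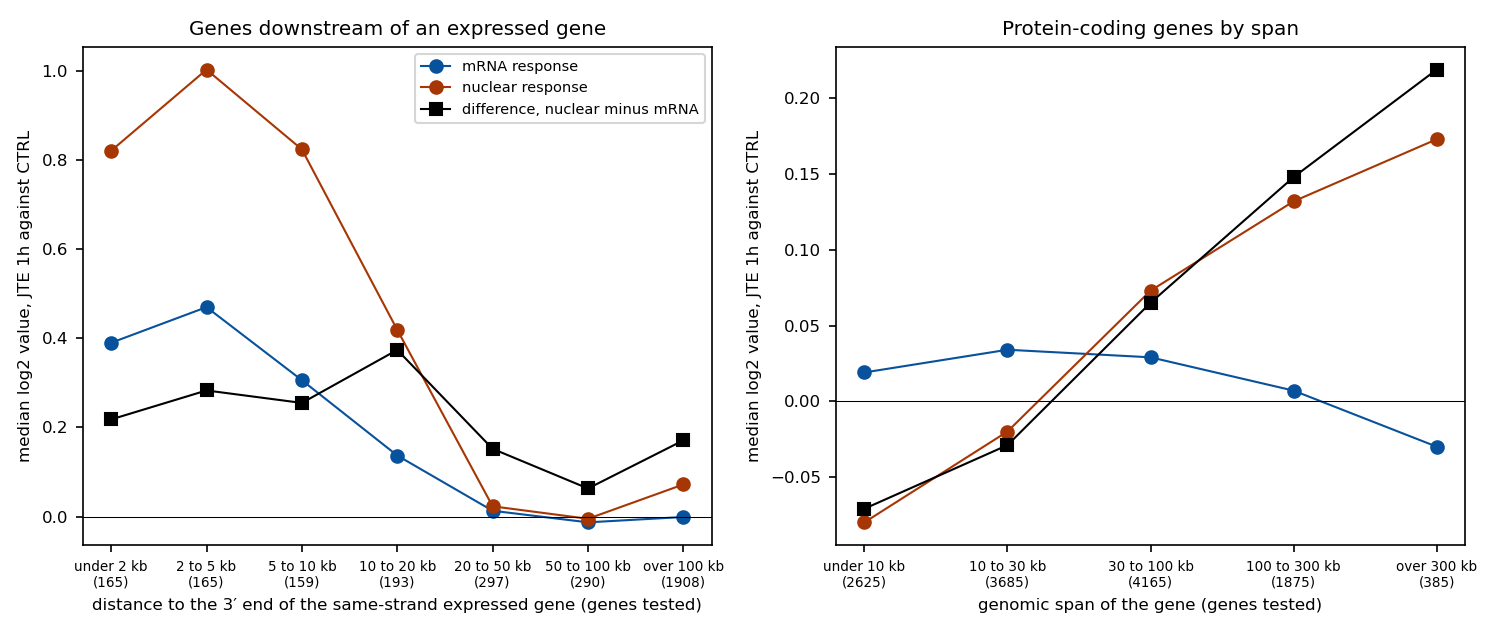
Medians of the log2 response in mRNA (blue), in nuclear RNA (brown) and of the difference between fractions (black), for tested genes by distance past the 3′ end of an expressed gene on the same strand (left) and for tested protein-coding genes by genomic span (right); the number of genes is given under each bin, and no error is drawn. The left panel falls from about 1 to 0 in nuclear RNA with distance, and the right panel rises in nuclear RNA and in the difference with span.

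Zinc finger genes of chromosome 19, a clustered family made up largely of transcriptional repressors, had lower medians in mRNA than in nuclear RNA. Of 241 listed genes 201 were tested, their median was -0.26 in mRNA and -0.01 in nuclear RNA, and 168 of the 201 had a positive difference, against 11094 of 19831 genes. None was called in the difference, 25 had an unadjusted p under 0.05 with the higher value in nuclear RNA and none with the lower. In mRNA ZNF526, ZNF649, ZNF543, ZNF17, ZNF586 and ZNF324 were called lower (2.99% of the 201, against 0.439% of all genes), and in nuclear RNA ZNF526, ZNF324 and ZNF446 (1.49% against 0.504%), all but ZNF17 named after their values were seen. ZNF17 was at 6.74, 7.84 and 7.58 CPM in mRNA CTRL and 3.13, 3.46 and 3.64 in mRNA JTE 1h, beside overlapping nuclear groups, with a difference of 0.90 (SE 0.23, edgeR adjusted p 0.351). ZNF555 had a difference of 1.01 (SE 0.25, edgeR adjusted p 0.32). The library medians were -0.10, -0.27 and -0.38 in mRNA JTE 1h and -0.06, 0.11 and -0.05 in mRNA CTRL, with no overlap. In nuclear JTE 1h they were 0.04, -0.02 and -0.05, within the range of nuclear CTRL, and the median difference of 0.25 was 0.16 without mRNA JTE 1h replicate 3.

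**Figure D5:**
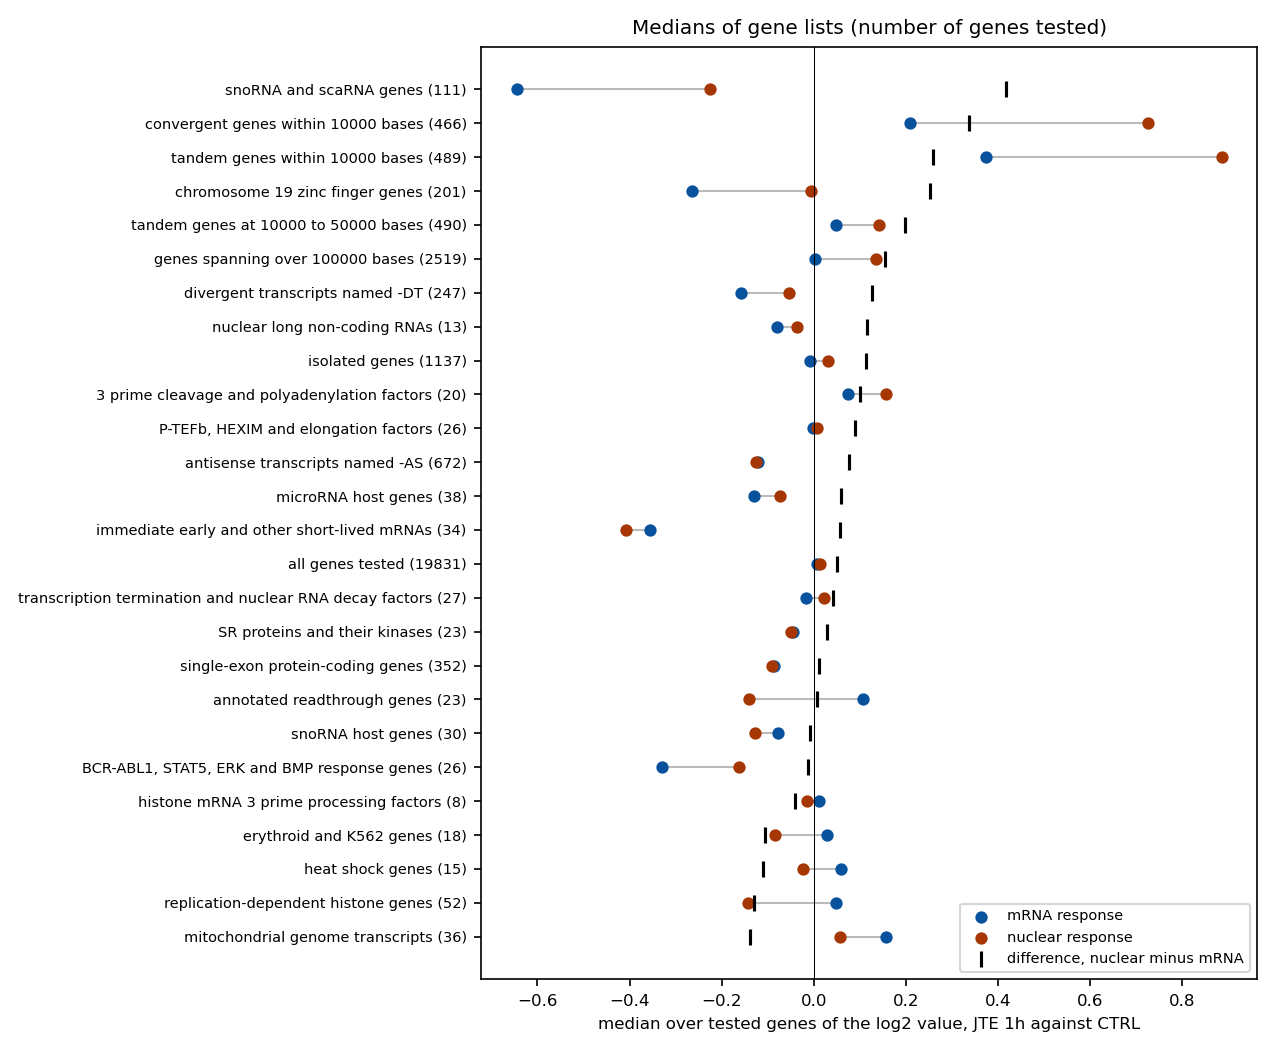
Medians over the tested genes of each list (number in brackets) of the log2 response in mRNA (blue), in nuclear RNA (brown) and of the difference between fractions (black bar); a grey line joins the responses and no error is drawn. The median of the differences need not equal the distance between the medians. snoRNA genes, convergent and tandem genes and chromosome 19 zinc finger genes lie at the top, and immediate early genes lie left of 0 in both fractions with a difference near 0.

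The list of immediate early genes was low in both fractions. The 34 tested immediate early and other short-lived mRNAs had medians of -0.41 in nuclear RNA and -0.36 in mRNA and a median difference of 0.06, and none was called in the difference. BTG2 and ZFP36, which encode an antiproliferative protein and an mRNA decay factor, were called lower in both fractions (BTG2 by -0.85 in nuclear RNA and -1.17 in mRNA, ZFP36 by -0.86 and -1.09), and ZFP36L2 and TOB1 were called lower in mRNA and not in nuclear RNA. These calls are 5.88% of the list in nuclear RNA and 11.8% in mRNA, against 0.504% and 0.439% of all genes called lower. All of these genes but TOB1 were named after their values were seen, as were the next genes. In the list of 26 tested BCR-ABL1, STAT5, ERK and BMP response genes, DUSP1 and SOCS3, feedback inhibitors of kinase and cytokine signalling, were called lower in both fractions and SOCS1 in nuclear RNA. That is 11.5% of this list in nuclear RNA and 7.69% in mRNA, against the same shares of all genes. SOCS3 had values of -1.06 and -1.12 and a difference of 0.06 (SE 0.22), and DUSP1 -0.92 and -0.76 and a difference of -0.16 (SE 0.20).

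The 20 tested cleavage and polyadenylation factors had medians of 0.16 in nuclear RNA and 0.08 in mRNA. By library their median, on the scale used above, was 0.19, 0.13 and 0.16 in nuclear JTE 1h and 0.10, -0.05 and -0.05 in nuclear CTRL, and 0.07, 0.10 and 0.12 in mRNA JTE 1h and 0.04, -0.01 and 0.01 in mRNA CTRL. All treated libraries were above all untreated ones in both fractions, and the median difference between fractions was 0.10. Of these 20 factors PCF11, a termination factor whose own gene is known to be regulated by early polyadenylation, was the only one called, named here after its values were seen. That is 5% of the list called higher in nuclear RNA, near the 5.14% of all genes, and 5% in mRNA against 0.353%. PCF11 was higher by 0.92 in nuclear RNA and 0.91 in mRNA (edgeR adjusted p 0.000349 and 0.0031), a difference of 0.01 (SE 0.18). CPSF1 and CPSF4, subunits of the complex that holds CPSF73, had differences of -0.25 and -0.26 (SE 0.12 and 0.13), not called. Of the 27 termination and nuclear decay factors none was called, and SCAF8, an anti-terminator that binds RNA polymerase, had an mRNA value of -0.45 (edgeR adjusted p 0.0285), under the fold threshold, beside 0.02 in nuclear RNA. The 26 elongation factors, 23 SR proteins and kinases, 15 heat shock genes and 8 histone mRNA processing factors had no called gene in either response or in the difference, with median differences of 0.09, 0.03, -0.11 and -0.04.

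The 52 tested replication-dependent histone genes had medians of -0.14 in nuclear RNA and 0.05 in mRNA and a median difference of -0.13. H2BC6, H3C6 and H2BC14, named after their values were seen, were called higher in nuclear RNA (5.77%, near the 5.14% of all genes) and no histone gene was called in mRNA. The 38 microRNA host genes had a median difference of 0.06, with MIRLET7IHG, MIR155HG and MIR194-2HG called higher and MIR9-1HG lower in nuclear RNA, which is 7.89% higher and 2.63% lower against 5.14% and 0.504% of all genes; all but MIRLET7IHG were named after their values were seen. The 247 divergent transcripts and the 672 antisense transcripts had median differences of 0.13 and 0.08 and no call in the difference. By annotated biotype the median difference was 0.37 for 136 miscellaneous RNAs, 0.31 for 290 transcripts yet to be experimentally classed and 0.15 for 3195 long non-coding RNAs, against 0.03 for 12735 protein-coding genes. Biotypes were not matched for level, and the median difference was larger in low genes of any kind. Of the divergent ones PDCD6-DT rose in nuclear RNA (1.26, edgeR adjusted p 0.00355) with an mRNA value of -0.33 and a difference of 1.59 (SE 0.40, edgeR adjusted p 0.33). The 36 mitochondrial transcripts had a median difference of -0.14, with values of 1.64 for MT-RNR2 and 1.62 for MT-RNR1 that were not called (SE 0.75 and 0.76); nuclear JTE 1h replicate 3 stood apart there, with MT-RNR1 at 255 CPM beside 60.3 and 64.8 in the other libraries of its group.

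Whether the mRNA of the called genes was higher later was read from JTE-607 at 6 h against 1 h, in a fit of all mRNA libraries in which 1671 of 18095 genes (9.23%) were called, 923 higher (5.1%) and 748 lower (4.13%). The JTE 1h mRNA libraries are shared with the difference between fractions, so a gene that is low in them is favoured to be higher at 6 h. Of the 12 genes FICD, ZNF484 and SLC37A2 were called higher at 6 h, by 0.82, 1.17 and 1.28 on the log2 scale (edgeR adjusted p 0.0123, 0.000666 and 0.00905). RNF169 was higher by 0.38 (edgeR adjusted p 0.00496), under the fold threshold. The others were not called at 6 h, with 0.98 for SNORA73B (edgeR adjusted p 0.161), 0.61 for MIRLET7IHG, 0.51 for COX20, 0.33 for DRG1P1, 0.20 for ENSG00000241352, -0.06 for PRSS12, -0.10 for WDR82P2 and -0.45 for NFE2L3. At 18 h against 1 h the same fit called 1061 genes (5.86%), 704 higher (3.89%) and 357 lower (1.97%). Of the 12 genes, 5 were called higher at 18 h: SNORA73B by 1.69, ZNF484 by 1.46, SLC37A2 by 1.09, FICD by 0.96 and RNF169 by 0.70 (edgeR adjusted p 0.0105, 0.000114, 0.0346, 0.00571 and 2.09e-05). PRSS12 was called lower (-2.61, edgeR adjusted p 0.00236), NFE2L3 had -0.56 (edgeR adjusted p 0.0217), under the fold threshold, and the other 5 were not called. MIR17HG and ZNF555, not called in the difference, rose by 1.07 and 1.11 from 1 h to 6 h (edgeR adjusted p 0.0206 and 0.000106).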

How the data were processed

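Count tables of 58243 genes were deposited for mRNA and for nuclear RNA and joined by gene ID. According to the study's methods and the labels, the authors made these raw counts of read pairs over exons with featureCounts, from trimmed, deduplicated, uniquely mapped reads aligned to hg38 with STAR; strand was not used and pairs over several genes were dropped, so antisense, overlapping and duplicated genes are uncertain. The annotation release is not given in the sources used here; 57532 IDs are in GENCODE 44.

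The 12 libraries were fitted together in edgeR 4.0.16 (R 4.3.3; TMM, filterByExpr, robust quasi-likelihood), with 1 term per group and 3 contrasts from that fit. CPM of single genes and list medians are TMM scaled and give relative levels, not amounts per cell. Marker sums, and the averages over the 12 libraries used to sort genes by level, were scaled to the library total alone. The common dispersion was 0.0209 and the median SE of the difference 0.321. The fit was tested on simulated data, with unpaired libraries drawn from its own dispersions and changes only in genes of at least 1 CPM. That test therefore does not cover paired libraries or lower genes. P-values measure the spread between these libraries; exact intervals cover counting error only.

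Genes were named by rule: all called; up to 5 each way by size, averaging at least 10 CPM in a group, at an unadjusted p under 0.01; 5 called alike in both fractions; the 2 with the smallest p in each list of at least 1 CPM; CPSF3 and CES1 (not tested, too few counts); and the same-strand neighbours upstream of called genes. Members and lists were chosen with earlier results of these data known. Same-number correlations of deviations from the group means, over 9015 genes, were 0.699, 0.3 and 0.625 in nuclear RNA, so those numbers pair libraries, and -0.201, -0.25 and 0.834 in mRNA, so those, as deposited, do not. By its library totals, the study's supplement numbers mRNA CTRL replicates 1 and 2 the other way round. Alternatives were other normalizations and filters, DESeq2 1.42.0, wider fits, replicate blocks, IM 1h as reference and leaving out each library; the block in nuclear libraries alone was added after seeing the data. An item that the rule named is not reported here.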

Additional observations from a re-analysis of the deposited data

Results flagged for a closer look

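The 12 genes called in the difference between fractions are listed because the response to JTE-607 differed between nuclear RNA and mRNA by a direct test of that difference (edgeR's quasi-likelihood test, Benjamini-Hochberg adjusted p under 0.05). The differences were 2.64 for SNORA73B, 1.19 for NFE2L3, 2.06 for MIRLET7IHG, 2.82 for DRG1P1, 1.53 for FICD, 1.56 for ZNF484, 1.58 for COX20, 0.81 for RNF169, 3.76 for WDR82P2, 2.12 for SLC37A2 and 4.12 for ENSG00000241352 on the log2 scale, and -2.67 for PRSS12. Of these genes 7 (58.3%) overlap another annotated gene, against 69.3% of the genes tested, and 8 have a mean CPM under 10, as do 10816 of the 19831 genes tested. The part of overlap, of library chemistry and of read depth in these values was not tested.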

How the results depend on the processing

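The count of 12 genes moved by more than 1.5 times to 6 with upper quartile scaling, 62 without a filter on low counts, 3 with a filter at 10 CPM, 29 with DESeq2 and 25 in a fit of all 42 libraries, and ranged from 1 to 10 when 1 library was left out. The count of 1119 for nuclear RNA moved to 1920 without a filter, 11 with a filter at 10 CPM and 1868 in a fit of all 15 nuclear libraries, and ranged from 654 (without nuclear CTRL replicate 2; 725 without nuclear JTE 1h replicate 1) to 1427. The count of 157 for mRNA moved to 356 without a filter, 37 with a filter at 10 CPM, 259 with DESeq2 and 241 in a fit of all 42 libraries, and ranged from 74 (without mRNA CTRL replicate 1; 94 without mRNA CTRL replicate 3 and 83 without mRNA JTE 1h replicate 3) to 175. The filter at 10 CPM left 9015 genes to test in place of 19831. Of the counts with a replicate block, the block within each fraction gave 19 genes for the difference, 1536 for nuclear RNA and 251 for mRNA; a block shared by the fractions gave 10, 1238 and 201; and the block in nuclear libraries gave 2, 979 and 107. In mRNA the deposited numbers do not pair libraries. CTRL replicate 1 correlated best with JTE 1h replicate 2 (0.803), CTRL replicate 2 with replicate 1 (0.839) and CTRL replicate 3 with its own number (0.834). In the deposited counts mRNA CTRL replicates 1 and 2 total 18333127 and 19031221, and the study's supplement gives these totals to the opposite numbers. The supplement's numbering thus pairs the mRNA libraries as the correlations do. Blocks with mRNA terms used the deposited numbers, and a fit with the supplement's numbers was not run. List medians moved by less than the spread between single libraries in 246 values under other settings and 300 with 1 library left out. That spread is a loose bound, since it often exceeded the median itself (0.389 beside 0.259 for tandem genes). With 1 library left out some list medians changed sign, as for cleavage factors (0.10 to -0.006), microRNA host genes (0.059 to -0.095) and replication-dependent histone genes (-0.129 to 0.051). Those of tandem, convergent, snoRNA and chromosome 19 zinc finger genes stayed positive. No scaling moved the median of all genes by over 0.1. The sign turned, among genes that were not called, for ENSG00000260966 (0.044 with the block in each fraction, 0.0146 with the shared block, 0.0487 with the block in nuclear libraries, 0.113 against IM 1h) and, against IM 1h, for MBLAC1 (0.11), HSPH1 (-0.0901), CPSF3 (-0.12), PHACTR4 (-0.021) and POLD3 (-0.0136). With 1 library left out it turned for ENSG00000261490 (-0.45 to 0.993), ENSG00000260966 (-0.301 to 0.50), PHACTR4 (-0.095 to 0.118) and POLD3 (-0.0213 to 0.339). The cause was not tested. Few counts limit snoRNA and pseudogene values in mRNA and nuclear CTRL.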
